A study of Mus musculus with 18 samples.

Results

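Refed wild-type (WT) mouse liver was examined with a map of open chromatin, from ATAC-seq, and a map of the histone mark H3K9me2, from ChIP-seq, and the comparison here asked which genes carried open chromatin, the mark, or both at their start. It used 4 of the 18 samples of the series, which were ATAC-seq of 2 WT refed livers and H3K9me2 ChIP-seq of 2 WT refed livers. A gene was a member when a summit, the single position at which a called peak is highest, lay within 1000 bp of one of its RefSeq transcript starts on the mouse assembly GRCm38 (mm10). Of 26180 annotated genes 9762 had such a summit in at least 1 of the 4 files, compared with 11490 in at least 1 of all 10 summit files. The rule used position and no level or difference, and the H3K9me2 replicates were taken separately because they disagreed.

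All mice were C57BL/6J. WT or JMJD1C-LKO mice had been kept on chow for 6 to 8 weeks, and the labels give an overnight fast followed by 6 h of refeeding with a high carbohydrate diet, whereas the study's methods give a longer refeeding. The labels state this treatment for the fasted samples as well, and the fasted or refed state was read from the titles. JMJD1C-LKO mice carry a floxed Jmjd1c gene deleted by Cre under the albumin promoter, which acts in hepatocytes, so other liver cells keep the gene. Each ATAC-seq and ChIP-seq replicate was 1 mouse processed on its own, whereas RNA was pooled before RNA-seq, and no source says whether replicates with the same number came from the same mouse. The age of each animal is not given in the labels.

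In ATAC-seq a transposase cuts accessible DNA, so reads gather at nucleosome-poor promoters and enhancers. H3K9me2 is dimethylation of lysine 9 of histone H3, a mark laid down chiefly by the methyltransferases EHMT1 and EHMT2, removed by demethylases of the KDM3 family to which JMJD1C belongs, and known for silent and lamina-associated chromatin. In liver, refeeding a high carbohydrate meal switches on lipogenic genes and switches off gluconeogenic ones. The question of the comparison is how far open chromatin and the mark meet at the starts of such genes.

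The promoters below show what the classes look like in sequence. Each is the 250 bases upstream of a RefSeq start (RefSeq promoter sequences, GRCm38.p6), written 5′ to 3′ on the strand of the gene, with every CG dinucleotide in capitals, and none of them overlaps an annotated exon. Nr1d2, a nuclear receptor of the clock, and Hmgcs1, the cytosolic synthase at the head of cholesterol synthesis, were open in both livers and marked in H3K9me2 replicate 2. Asf1b, a histone chaperone, Gm2a, the GM2 ganglioside activator of lysosomes, and Pdk4, the kinase that blocks pyruvate dehydrogenase, were open and not marked. Eif4a1, the helicase of translation initiation, and Pck1, the gluconeogenic carboxykinase, were marked in replicate 2 and had no ATAC-seq summit. Acly, ATP citrate lyase, was marked and open in 1 liver. Ppargc1a, a coactivator of gluconeogenesis, and Alb, albumin, had neither.
Nr1d2: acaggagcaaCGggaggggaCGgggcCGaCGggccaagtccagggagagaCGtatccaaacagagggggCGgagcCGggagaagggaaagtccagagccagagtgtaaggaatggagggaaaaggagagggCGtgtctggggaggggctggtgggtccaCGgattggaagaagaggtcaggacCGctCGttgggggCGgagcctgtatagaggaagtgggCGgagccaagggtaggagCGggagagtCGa
Hmgcs1: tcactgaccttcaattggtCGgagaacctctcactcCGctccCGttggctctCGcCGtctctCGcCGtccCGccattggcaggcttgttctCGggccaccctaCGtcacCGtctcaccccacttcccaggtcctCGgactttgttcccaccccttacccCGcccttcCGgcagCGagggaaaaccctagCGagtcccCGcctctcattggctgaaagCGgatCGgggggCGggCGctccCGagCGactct
Asf1b: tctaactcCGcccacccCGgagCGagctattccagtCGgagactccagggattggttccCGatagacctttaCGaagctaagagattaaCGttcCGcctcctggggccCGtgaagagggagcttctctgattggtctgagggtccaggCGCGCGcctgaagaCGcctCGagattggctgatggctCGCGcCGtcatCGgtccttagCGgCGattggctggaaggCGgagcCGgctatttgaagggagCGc
Gm2a: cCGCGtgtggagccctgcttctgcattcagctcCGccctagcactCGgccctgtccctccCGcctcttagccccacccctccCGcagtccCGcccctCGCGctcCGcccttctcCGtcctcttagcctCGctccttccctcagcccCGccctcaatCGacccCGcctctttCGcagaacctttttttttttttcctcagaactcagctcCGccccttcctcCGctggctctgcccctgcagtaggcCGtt
Pdk4: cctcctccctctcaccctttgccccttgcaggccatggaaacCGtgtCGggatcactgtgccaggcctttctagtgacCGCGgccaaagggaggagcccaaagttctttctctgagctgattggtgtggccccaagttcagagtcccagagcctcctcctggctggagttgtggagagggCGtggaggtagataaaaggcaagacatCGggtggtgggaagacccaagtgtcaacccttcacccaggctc
Eif4a1: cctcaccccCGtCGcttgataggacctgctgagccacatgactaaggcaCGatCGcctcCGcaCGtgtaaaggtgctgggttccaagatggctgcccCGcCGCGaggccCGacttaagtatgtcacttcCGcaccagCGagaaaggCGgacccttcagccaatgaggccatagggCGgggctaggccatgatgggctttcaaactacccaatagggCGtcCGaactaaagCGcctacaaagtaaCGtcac
Pck1: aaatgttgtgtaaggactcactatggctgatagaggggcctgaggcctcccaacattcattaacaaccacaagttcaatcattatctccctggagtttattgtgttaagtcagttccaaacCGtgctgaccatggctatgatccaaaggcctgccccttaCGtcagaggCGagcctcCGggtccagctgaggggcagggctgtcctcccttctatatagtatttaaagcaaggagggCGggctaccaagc
Acly: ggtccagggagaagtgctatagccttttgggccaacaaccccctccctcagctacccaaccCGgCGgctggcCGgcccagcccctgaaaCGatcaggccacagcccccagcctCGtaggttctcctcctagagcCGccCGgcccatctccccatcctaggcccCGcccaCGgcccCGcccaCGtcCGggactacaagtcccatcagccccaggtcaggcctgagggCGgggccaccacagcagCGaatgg
Ppargc1a: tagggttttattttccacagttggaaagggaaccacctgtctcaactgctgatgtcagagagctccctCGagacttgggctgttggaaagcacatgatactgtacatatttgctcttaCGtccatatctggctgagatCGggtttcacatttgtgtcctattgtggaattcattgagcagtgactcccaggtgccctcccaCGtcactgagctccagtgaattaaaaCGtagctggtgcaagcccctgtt
Alb: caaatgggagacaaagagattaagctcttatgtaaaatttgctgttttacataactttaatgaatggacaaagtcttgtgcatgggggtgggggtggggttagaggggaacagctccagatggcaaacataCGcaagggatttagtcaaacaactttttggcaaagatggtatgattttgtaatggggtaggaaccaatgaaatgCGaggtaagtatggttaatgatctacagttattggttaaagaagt
The windows lie at chr14:18239107-18239356 on the minus strand for Nr1d2, chr13:119690101-119690350 on the plus strand for Hmgcs1, chr8:83955444-83955693 on the plus strand for Asf1b, chr11:55097735-55097984 on the plus strand for Gm2a and chr6:5496279-5496528 on the minus strand for Pdk4. Those of Eif4a1, Pck1, Acly, Ppargc1a and Alb lie at chr11:69672424-69672673 (minus), chr2:173152823-173153072 (plus), chr11:100528001-100528250 (minus), chr5:51567726-51567975 (minus) and chr5:90460620-90460869 (plus). The number of CG dinucleotides in these 250 bases was 23 for Hmgcs1 and for Asf1b, 19 for Gm2a, 18 for Eif4a1, 15 for Nr1d2, 14 for Acly, 6 for Pdk4, 5 for Pck1 and for Ppargc1a and 2 for Alb. Marked promoters were therefore found at both high and low CG content, as were open ones.

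The H3K9me2 replicates gave unlike maps, which every count below depends on. Replicate 1 held 1297 summits, of which 5.01% (95% confidence interval 3.95–6.34) lay within 1000 bp of a transcript start and 70.6% lay between genes, and 73.0% had mostly repeat-masked sequence around them. Replicate 2 held 9929 summits, of which 90.4% (89.8–90.9) lay at a start and 3.57% between genes, with 1.49% in repeats. The replicates shared 4 summits within 200 bp and 11 genes. Of the summits of replicate 2, 80.9% lay within 200 bp of a summit of WT fasted H3K9me2 replicate 2 and 63.0% within 200 bp of one of fasted replicate 1, so the refed replicate 2 resembled both fasted livers more than its own partner. The ATAC-seq livers were closer to each other, with 5027 and 3119 summits, 43.5% (42.2–44.9) and 42.5% (40.8–44.2) of them at a start, and 30.4% and 48.9% of each list within 200 bp of the other. Shares of repeats were 41.4% and 43.0% in the ATAC-seq livers. Intervals cover counting error only, and the read depth behind the summits is unknown from the files.

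A summit at the start was found in ATAC-seq for 2602 genes in replicate 1 and 1633 in replicate 2, and 1252 genes, called open here, had one in both livers. With H3K9me2 replicate 1, 7 of the 1252 open genes were also marked, 1245 had open chromatin only and 54 had the mark and were not open in both livers. With H3K9me2 replicate 2, 1070 were open and marked, 182 had open chromatin only and 8124 had the mark and were not open in both livers. Thus 0.559% of the open genes were marked by replicate 1, compared with 0.233% of all annotated genes, and 85.5% were marked by replicate 2, compared with 35.1% of all annotated genes. The share depends on the width of the window and the length of the lists. When only summits from 1000 bp upstream to 100 bp downstream counted it was 38.3% of open genes and 11.6% of all, and when the 1297 highest scoring summits of each file were used it was 12.1% and 5.76%. Read the other way, 11.5% of the genes marked by replicate 1 and 11.6% of those marked by replicate 2 were open, compared with 4.78% of all genes. The replicate 1 shares rest on 7 genes, among them the neighbours Gm13275, Gm13278, Gm13279 and Gm13290 on chromosome 4. With so few genes, the likeness of the 11.5% and 11.6% does not show that the replicates agree. The 8124 genes divide into 1386 with an ATAC-seq summit in 1 liver and 6738 with none, and the latter are called mark only below. The remaining genes were 345 that were open in 1 liver and not marked and 16459 with neither.

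**Figure D1:**
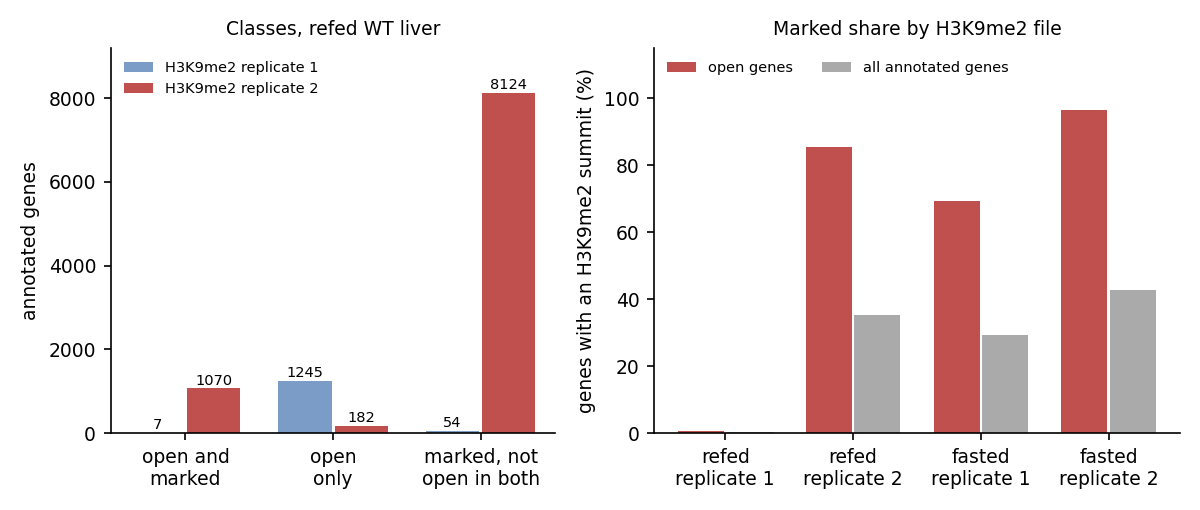
Left, the number of annotated genes (y axis) that were open in both ATAC-seq livers and marked, open only, or marked and not open in both livers, with H3K9me2 replicate 1 (blue) and replicate 2 (red) of refed WT liver. Right, the percentage of open genes (red) and of all 26180 annotated genes (grey) with an H3K9me2 summit at the start in each refed and fasted H3K9me2 file, where fasted files are set against genes open in both fasted livers. Open genes were marked at 85.5% in refed replicate 2 and 0.559% in refed replicate 1.

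The share of marked genes was similar when openness was seen in 1 liver. Of 1731 genes with a summit in only 1 of the ATAC-seq livers 80.1% were marked by replicate 2, and of 2983 genes with a summit in either liver 82.3% were. It also changed little with the rank of the ATAC-seq summit. With open genes in 4 equal groups from the lowest to the highest score, the −log10 of the q-value at the summit, the marked share was 86.9%, 86.3%, 84.4% and 84.4% in ATAC-seq replicate 1 and 88.2%, 84.0%, 86.9% and 82.8% in replicate 2. Likewise the share of open genes among those marked was 11.8%, 10.8%, 12.2% and 11.8% from the lowest to the highest of 4 groups by H3K9me2 score. Open genes were thus no more often marked where the open summit scored high, as far as these groups show. These shares are descriptions over genes, which are not replicates.

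Within the promoter, the open and the marked positions lay apart. At the 1070 open and marked genes the highest scoring ATAC-seq summit had a median position of −138 bp in replicate 1 (negative upstream of the nearest start, quartiles −221 and −14.3) and −136 bp in replicate 2 (quartiles −215 and −36), and the highest scoring H3K9me2 summit of replicate 2 had a median of 252 bp downstream (quartiles 16.8 and 341). At mark-only genes the H3K9me2 median was 263 bp downstream (168 and 336), and at all 9194 marked genes it was 260 bp, with 80.9% downstream of the start and 16.9% within 200 bp of it. In contrast, 68.6% and 69.3% of genes with an ATAC-seq summit had it within 200 bp. The distance between the nearest pair of open and marked summits was taken over all genes with both. These were 2142 genes with ATAC-seq replicate 1 and 1384 with replicate 2. The median distance was 404.5 bp (quartiles 283 and 500) and 415 bp (325 and 506) in that order. The mark lay downstream of the open summit at 71.1% and 71.6% of these genes. At 6.12% and 3.25% of them the pair lay within 100 bp.

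The mark lay on both sides of the open site at most genes with at least 2 marked summits, a minority of open and marked genes. The profile that follows is along the genome and not turned by strand, so its equal sides do not show flanking at single genes. Around the ATAC-seq summits at starts, H3K9me2 summits of replicate 2 were densest 400 to 500 bp away, with 13.0 per 100 ATAC-seq summits in each of the windows on the left and the right for liver 1 and 14.7 in each for liver 2, whereas the 100 bp on either side of the ATAC-seq summit held 2.24 and 2.56 in liver 1 and 1.13 and 1.51 in liver 2. Of open and marked genes 28.0% had at least 2 H3K9me2 summits at the start, compared with 15.4% of mark-only genes. Where a gene with an ATAC-seq summit had at least 2 marked summits, the open one lay between them at 483 of 525 genes (92.0%) for liver 1 and 340 of 375 (90.7%) for liver 2. Open and marked genes also more often had the start of another gene within 1000 bp, 43.6% of them, compared with 27.4% of mark-only genes, 29.1% of open-only genes, 8.82% of genes with neither and 17.0% of all annotated genes, and such neighbours can share the same summits. With replicate 1 there were 15 and 7 genes with both summits, at median distances of 542 and 140 bp, which is too few to describe a spacing.

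**Figure D2:**
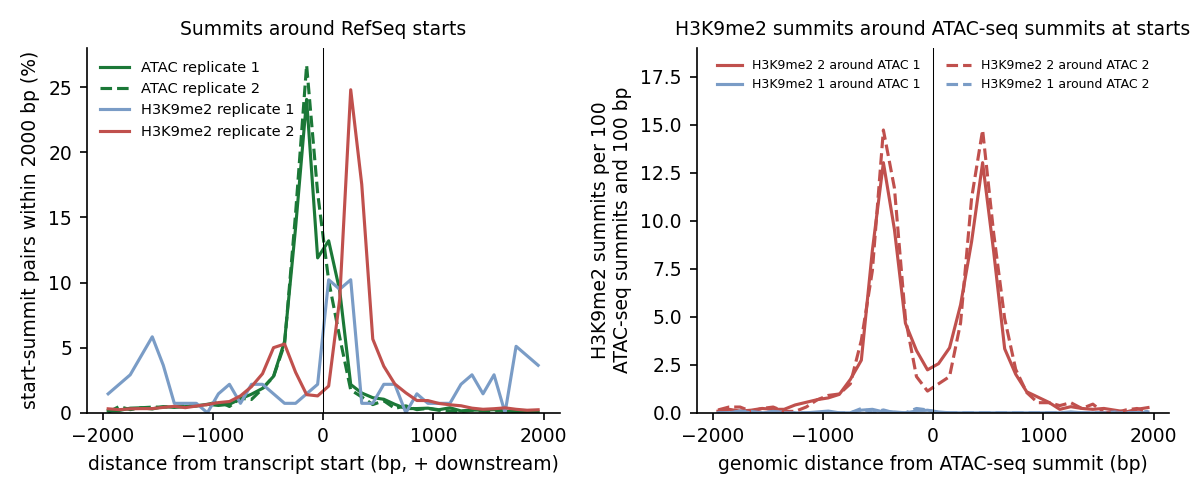
Left, the percentage of all pairs of a transcript start and a summit within 2000 bp (y axis) by distance from the start in 100 bp bins (x axis, positive downstream) for each refed WT file. Right, H3K9me2 summits per 100 ATAC-seq summits at starts and 100 bp (y axis) by distance along the genome from the ATAC-seq summit (x axis, not turned by strand). ATAC-seq peaks just upstream of the start at 24.1% and 26.7% of pairs, H3K9me2 replicate 2 at 200 to 300 bp downstream with 24.8%, and the flanks at 400 to 500 bp hold 13.0 and 14.7 marked summits per 100.

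The genes that led the open and marked class were those with the best mean rank of their highest scoring summits within the files. Positions below are those of the highest scoring summit, negative upstream of the start nearest to it. At a gene with several starts that start can differ between files. Tardbp, which encodes the RNA-binding protein TDP-43, had ATAC-seq summits 15 and 72 bp downstream of its start, with scores of 21.6 and 23.3 that ranked 198 of 5027 and 153 of 3119, and an H3K9me2 summit of replicate 2 at 522 bp with a score of 50.1 that ranked 75 of 9929. Eif5a, a translation factor with 6 starts, had open summits at −207 and −127 bp from 1 start. Its mark lay 15 bp downstream of another start, with a score of 49.5, so these offsets do not give the distance between them. Lrpprc, which stabilises mitochondrial mRNAs, was open at 68 and 54 bp and marked at 555 bp. Uvrag, a regulator of autophagy, was open at −164 and −176 bp and marked at 292 bp. The open summit stood upstream of the marked one at each of these genes.

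Pairs of genes transcribed from a common promoter were frequent among the leaders. Ctns, which encodes the lysosomal cystine carrier, and Shpk, the kinase of sedoheptulose, start head to head and shared an ATAC-seq summit with scores of 25.2 and 13.6 and an H3K9me2 summit with a score of 42.3, 236 bp downstream of Shpk and −676 bp from Ctns. Nsun2, an RNA methyltransferase, and Srd5a1, a steroid reductase, shared summits in the same way, the mark being at 236 bp from Nsun2 and −789 bp from Srd5a1. A summit assigned to both genes of such a pair cannot be given to either. Ppm1b, a protein phosphatase, was open at −315 and −261 bp and marked at 345 bp. BC005537, with no named function here, was open at −713 and −722 bp and marked at −182 bp. In refed H3K9me2 replicate 1 none of these genes was marked, while both fasted H3K9me2 replicates marked all 10 of them within 1000 bp of the start.

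Open-only genes were a small class. Of the 182 open genes not marked by replicate 2, 6 were marked by replicate 1, leaving 176 that were marked by neither. Gm2a, with the sequence above, was open at −70 and −86 bp with scores of 21.7 and 24.2, in both fasted livers at −86 bp, and in the JMJD1C-LKO livers at −83 and −22 bp. Asf1b was open at −364 and −231 bp with scores of 21.6 and 20.8 and Smc2, a condensin subunit, at −139 and −98 bp. Prkra, which activates the kinase PKR, was open at −156 and −170 bp, Fdxr, the mitochondrial ferredoxin reductase, at −173 and −251 bp, and Paip2b, a translational repressor, at −118 and −76 bp. Tas2r134, a bitter taste receptor, was open at −766 bp in both livers and is absent from the RNA-seq table. The fasted livers disagreed on this class. Fasted H3K9me2 replicate 2 marked 139 of the 182 (76.4%, compared with 42.7% of all annotated genes). Fasted replicate 1 marked 20 (10.99%, compared with 29.3% of all). Gm2a, Asf1b, Smc2, Prkra and Fdxr were all marked in fasted replicate 2, with scores between 8.41 and 18.0.

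Mark-only genes formed the largest of the classes with a summit, and several of their leaders are housekeeping genes. Srsf5, a splicing factor, held the H3K9me2 summit with the highest score of replicate 2 (92.3, at 314 bp downstream), followed by Eif4a1 (81.3, at 605 bp). Glyctk, glycerate kinase, was marked at 306 bp with a score of 71.8, Sec24a, a coat protein of secretory vesicles, at 725 bp with 68.9, Naca, a ribosome-associated chaperone subunit, at 566 bp with 64.7, Actb, beta-actin, at 368 bp with 64.2, and Rpl3, a ribosomal protein, at 375 bp with 62.8. None of them had an ATAC-seq summit in either refed WT liver. All were also marked in both fasted livers. Trim25, a ubiquitin ligase, was marked at 288 bp with a score of 63.1.

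Both refed replicates marked 11 genes, which is 18.0% of the 61 genes of replicate 1, below the 35.1% of all annotated genes that replicate 2 marked. The marks often lay at different sites of the gene, as at Zfp236, at −790 bp in replicate 1 and 727 bp in replicate 2. The genes were 2610005L07Rik, 6820431F20Rik, Acot1, Ahcy, H3c7, Maz, Mpp7, Rpl34, Tmpo, Zfp236 and Zfp991, named here because the count is small. Mpp7, a scaffold protein of cell junctions, was the single gene of the 1252 open ones among them, and it has 2 starts. At 1 start lay the best ATAC-seq summit of liver 1 (−125 bp) and the best mark of replicate 2 (277 bp, score 10.2). At the other lay those of liver 2 (−962 bp) and of replicate 1 (−927 bp, score 16.3). These 4 best summits thus did not fall at a single promoter. Ahcy, the S-adenosylhomocysteine hydrolase that clears the product of methylation reactions, was marked at 285 bp (score 2.88) and 336 bp (score 36.7) and had no ATAC-seq summit. Rpl34 was marked at 168 bp (score 4.20) and 261 bp (score 33.6). Acot1, a cytosolic acyl-CoA thioesterase that is induced in fasting, was marked at 130 bp (score 5.19, rank 355 of 1297) and 303 bp (score 6.43, rank 8720 of 9929) and was open in neither liver. Acot1 has near-identical paralogs beside it, so reads there are uncertain. Scores differed in rank between the replicates, low in replicate 1 for Ahcy and low in replicate 2 for Acot1.

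Lipogenic genes were widely marked by replicate 2. Of 22 lipogenic genes 17 (77.3%, compared with 35.1% of all annotated genes) were marked by replicate 2 and 0 by replicate 1. Open in both livers was 1 (4.55%, near the 4.78% of all genes). Of genes with a mean of at least 1 TPM (a level scaled by transcript length and library total) replicate 2 marked 74.4%, and of those of at least 10 TPM 87.6%. The lipogenic list had medians of 36.4 and 39.5 TPM in the WT libraries, and its marked share lay between these 2 shares. Fasn, fatty acid synthase, at chr11:120805958-120824547 (minus), was marked 781 bp downstream of its start with a score of 40.2 that ranked 392 of 9929 and had no ATAC-seq summit. Acly was open in liver 1 only, at −11 bp with a score of 5.81, inside the sequence shown above, and was marked at 467 bp with a score of 18.8. Gpam, which makes the first acyl step of triglyceride synthesis, was marked at 312 bp with a score of 55.0 that ranked 43. Scd1, the stearoyl-CoA desaturase, was marked at 488 bp with a score of 7.63, Srebf1, the SREBP-1 gene, at 400 bp with 16.1, Mlxipl, the ChREBP gene, at 677 bp with 35.3, and Usf1 at −23 bp with 28.8. Acss2, which makes acetyl-CoA from acetate, was the open and marked member, open at −144 and −130 bp and marked at 380 bp. Acaca, acetyl-CoA carboxylase, and Elovl6, a fatty acid elongase, had neither, although the nearest mark to a start of Elovl6 lay 1073 bp away, just outside the limit.

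Gluconeogenic and oxidation genes were also widely marked, and oxidation genes were more often open. Of 14 gluconeogenic genes 12 were marked by replicate 2 and 0 were open in both livers. Pck1 was marked at 672 bp with a score of 10.8, G6pc, glucose-6-phosphatase, at 329 bp with 24.5, Fbp1, fructose bisphosphatase, at 525 bp with 48.0 and Foxo1, the insulin-restrained transcription factor, at 309 bp with 30.8. Ppargc1a had neither, with the nearest mark 1758 bp from a start. Of 30 fatty acid oxidation genes 24 were marked and 6 (20%) were open in both livers. Of all genes 4.78% were open, and of genes of at least 10 TPM 10.1%. Acadm, the medium-chain dehydrogenase, was open at −1 and −21 bp and marked at 341 bp, and Etfdh, which passes the electrons on, was open at −138 and −157 bp and marked at 319 bp. Hadha and Hadhb, the subunits of the trifunctional protein, share a promoter, an ATAC-seq summit with scores of 11.5 and 16.2 and a mark with a score of 34.4. Pdk4 was the open-only member, with scores of 6.69 and 5.46. Cpt1a, the carnitine palmitoyltransferase that admits fatty acids to mitochondria, was marked at 340 bp with a score of 42.8 and had no ATAC-seq summit. The shares marked were 85.7% of the gluconeogenic and 80.0% of the oxidation list, compared with 87.6% of genes of at least 10 TPM.

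Cholesterol biosynthesis was the list with the most open members by share among those drawn in the plot of gene lists with more than 4 genes. Of 24 genes 24 were marked by replicate 2 and 8 (33.3%) were open in both livers. For comparison, 4.78% of all genes and 10.1% of those of at least 10 TPM were open, and 87.6% of the latter were marked. Hmgcs1 was open at −112 and −106 bp, inside the sequence above, and marked at 363 bp. Idi1, the isomerase of isopentenyl diphosphate, was open at 150 and 142 bp and marked at 627 bp. Mvk, mevalonate kinase, was open at −107 and −161 bp and marked at 342 bp, and Cyp51, the lanosterol demethylase, was open at 53 bp in both livers and marked at 559 bp. In fasted H3K9me2 replicate 1, 12 of the 24 genes were marked, and in fasted replicate 2 all 24 were.

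Genes of signalling, translation and chromatin were also mostly marked, where all annotated genes were marked at 35.1% and open at 4.78%. Genes with a mean of at least 1 TPM were marked at 74.4% and open at 9.40%. For those of at least 10 TPM the shares were 87.6% and 10.1%. Marked by replicate 2 and open in both livers, in that order, were 23 and 3 of 24 insulin and TOR signalling genes, 26 and 2 of 27 MAPK genes, 81 and 4 of 85 cytosolic ribosomal protein genes, 60 and 9 of 72 translation factors, 33 and 3 of 37 tRNA synthetases, 36 and 2 of 39 proteasome subunits, 20 and 2 of 23 nuclear receptors and liver factors, and 3 and 1 of 4 histone genes found by symbol. The open shares of ribosomal protein genes (4.71%) and proteasome subunits (5.13%) were near that of all genes. Of 18 genes for enzymes that write or erase H3K9 methylation 16 were marked and 3 were open. Jmjd1c itself, a gene with 2 starts that begins at chr10:67127088, had no ATAC-seq summit. Its mark, with a score of 6.80, lay at chr10:67186203, 453 bp downstream of the start inside the gene. Ehmt1 and Ehmt2 were marked at 282 and 263 bp with scores of 24.3 and 22.9. Kdm4b, a demethylase, was open at −329 and −342 bp and not marked. Among the 45 genes of the chromatin families the study names, 33 were marked and 7 open, and Hdac2, a histone deacetylase, was open at −148 and −118 bp and marked at 209 bp. Of 19 clock genes 17 were marked and 3 were open. Nr1d2 was open at −117 and −146 bp and marked at 243 bp, and Dbp, an output factor of the clock, was open at −340 and −336 bp and marked at 606 bp. Of 395 Zfp zinc finger genes 224 (56.7%) were marked and 29 (7.34%) were open.

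Families that are mostly silent in liver carried almost no summit of either kind. Of 1482 olfactory and vomeronasal receptor genes 1 was marked by replicate 2, 0 by replicate 1 and 0 were open in both livers. None of 39 Hox genes and none of 70 protocadherins was marked by either refed replicate or open in both livers. Cell type markers were examined as a check of the tissue. Of 14 hepatocyte markers 11 were marked, among them Ahsg, Apob, Fgb and Ttr, and 0 were open, whereas 0 of 12 Kupffer and immune, 0 of 11 endothelial and stellate and 1 of 10 cholangiocyte and other markers were marked. Hepatocyte markers were abundant in the RNA, with median levels of 6143 and 6278 TPM (a level scaled by transcript length and library total) in the WT libraries. Kupffer and immune markers had medians of 17.0 and 17.7 TPM, with 10 of 12 at 1 TPM or more in each WT library, and yet were unmarked. Alb itself had neither summit.

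**Figure D3:**
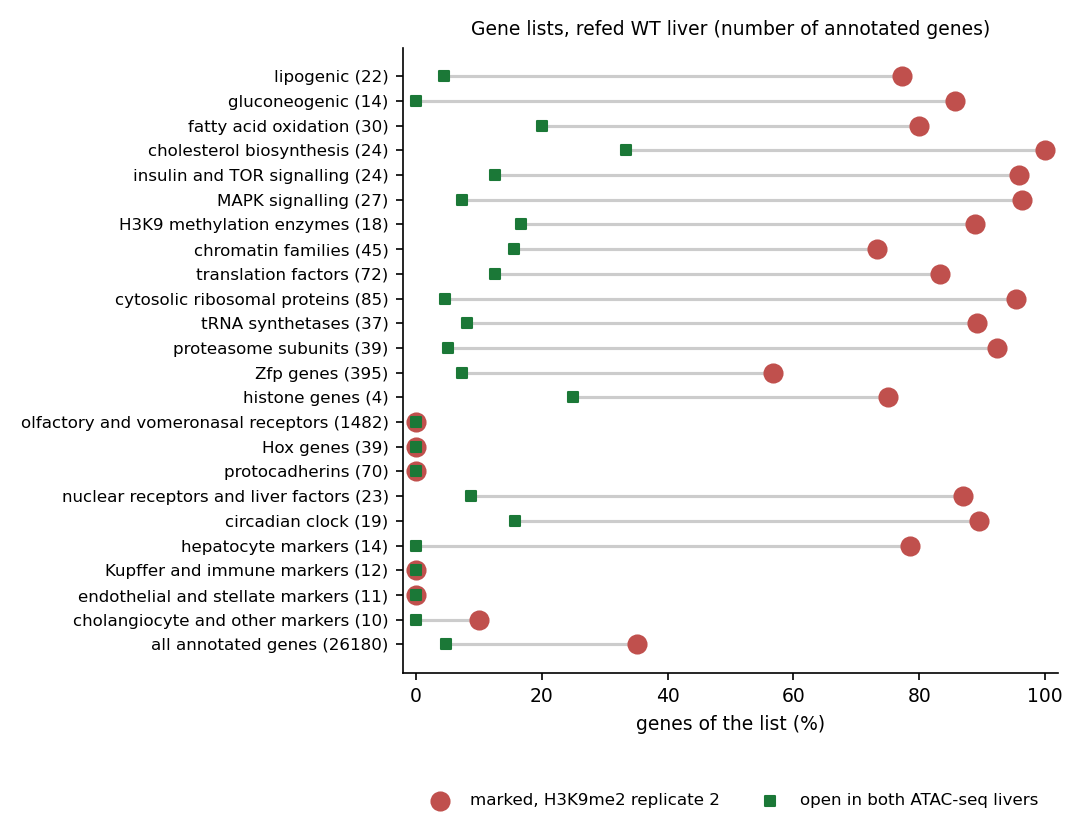
The percentage of the genes of each list (x axis) that were marked by refed H3K9me2 replicate 2 (red circles) or open in both refed ATAC-seq livers (green squares), with the number of annotated genes in brackets. The metabolic lists lie at 77.3% marked or above, whereas receptor, Hox and protocadherin lists lie at or near 0, and all genes lie at 35.1% marked and 4.78% open. Of genes with a mean of at least 10 TPM 87.6% were marked and 10.1% open (not drawn).

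RNA-seq of WT refed liver gave a readout that the choice of classes did not use. The median level of genes in the RNA table was 11.98 and 12.17 TPM in WT libraries 1 and 2 for open and marked genes, 13.8 and 14.2 for mark-only genes, 2.16 and 2.31 for open-only genes and 0.594 and 0.595 for genes with neither, and 4.89 and 4.98 over all annotated genes in the table. The table held 94.4% of the open and marked, 95.6% of the mark-only, 81.9% of the open-only and 38.1% of the genes with neither. The difference between WT libraries was smaller than that between marked and unmarked classes, and open and marked lay near mark only. Genes open in 1 liver followed the mark in the same way, with 10.8 TPM in both libraries when marked and 1.97 and 1.95 when not. The 61 genes marked by replicate 1 had 24 members in the table, with medians of 6.86 and 6.19 TPM.

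Grouped by level, expressed genes were more often marked by replicate 2 than weakly expressed ones. This is the reverse of the silent chromatin for which H3K9me2 is known, and why replicate 2 lay at expressed genes was not tested. Of 11091 genes with a mean of at least 1 TPM 74.4% were marked by replicate 2 and 9.40% were open. Of 5767 genes of at least 10 TPM the shares were 87.6% and 10.1%, and of 1191 genes of at least 100 TPM they were 90.5% and 7.89%. Of 4396 genes below 1 TPM 11.9% were marked and 2.64% open, and of the 10693 genes that the table lacks 3.93% were marked and 0.870% open. With the genes of the table in 10 equal groups by level the marked share went from 5.68% in the lowest to 90.3% in the highest, while the open share went from 1.74% to 12.1% in group 8 and was 7.55% in the highest. Replicate 1 marked between 0.0646% and 0.323% of each group.

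**Figure D4:**
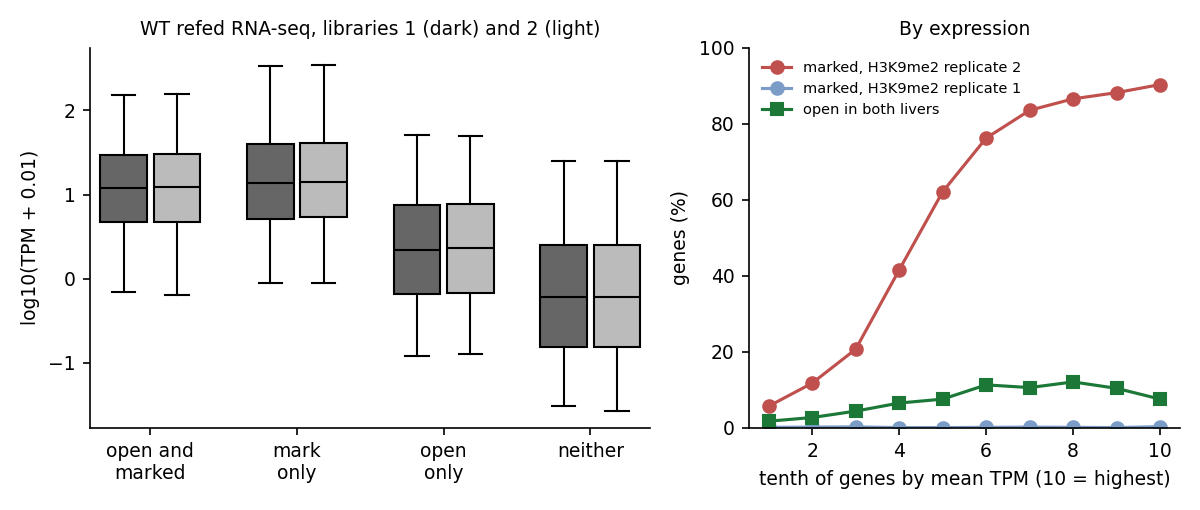
Left, log10 of TPM + 0.01 (y axis) of the genes of each class in WT refed RNA-seq libraries 1 (dark) and 2 (light), where boxes give the median and quartiles and whiskers the 5th and 95th percentiles. Right, the percentage of genes in each of 10 equal groups by mean TPM (x axis, lowest first) that were marked by H3K9me2 replicate 2 (red), marked by replicate 1 (blue) or open in both livers (green). The marked share of replicate 2 goes from 5.68% to 90.3%, while the open share stays at or below 12.1%.

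Examples show the spread within each class. Among open and marked genes Tardbp had 39.96 and 40.07 TPM in the WT libraries, Eif5a 578 and 632, and Mvk 5.93 and 5.06. Among open-only genes Gm2a had 50.5 and 51.6 TPM, Fdxr 21.1 and 18.7, Asf1b 0.431 and 0.292 and Pdk4 0.494 and 0.589. Among mark-only genes Srsf5 had 276 and 278 TPM, Pck1 984 and 796, Scd1 130 and 127 and Jmjd1c 4.37 and 4.62. Ppargc1a, with neither summit, had 2.33 and 2.41 TPM. High and low levels thus occur in each of these classes.

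RNA-seq of refed livers labelled JMJD1C-LKO was then set beside the classes. The targeted gene checks the label, and Jmjd1c had 3.86 and 4.14 TPM in the libraries labelled JMJD1C-LKO and 4.37 and 4.62 TPM in WT, a log2 fold change of −0.14 ± 0.0841 (SE) with an adjusted p of 0.233 in edgeR's quasi-likelihood test. A sum over whole transcripts cannot show the loss of single exons, but the total was not reduced past the threshold, so the libraries are named by their label. Over all 14151 genes tested, 2066 (14.6%) were higher and 1892 (13.4%) lower in the libraries labelled JMJD1C-LKO at an adjusted p below 0.05 (edgeR).

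Marked classes held more lower than higher genes and unmarked classes the reverse. Of 979 tested open and marked genes 82 (8.38%) were higher and 164 (16.8%) lower, with a median log2 fold change of −0.076. Of 6258 tested mark-only genes 694 (11.1%) were higher and 1141 (18.2%) lower, with a median of −0.061. Of 137 tested open-only genes 26 (19%) were higher and 11 (8.03%) lower, with a median of 0.044, and of 4915 tested genes with neither 1071 (21.8%) were higher and 282 (5.74%) lower, with a median of 0.249, where the median over all genes tested was 0.006. The 17 tested genes of replicate 1 had 2 higher and 7 lower. These counts were smaller when either WT library was left out. Without WT library 1 the open and marked genes gave 18 higher and 41 lower and without WT library 2 17 higher and 39 lower, mark-only genes 242 and 261 or 216 and 231, open-only genes 3 and 1 or 3 and 2, and genes with neither 465 and 100 or 373 and 80. The direction of the imbalance was the same in each of these.

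Markers of other cells moved with these differences. Of 12 Kupffer and immune markers 10 were higher in the libraries labelled JMJD1C-LKO and 0 lower, with summed levels of 741 and 1215 TPM compared with 236 and 244 TPM in WT, and of 11 endothelial and stellate markers 6 were higher and 0 lower, with 200 and 255 TPM compared with 177 and 183. Of 14 hepatocyte markers 3 were higher and 0 lower, and of 10 cholangiocyte and other markers 1 was higher and 0 lower. For comparison, 14.6% of all genes tested were higher and 13.4% lower. None of the immune and endothelial markers belonged to a marked or open class, and their part in the imbalance between classes was not tested. In bulk liver, more cells of a type and more RNA per cell cannot be told apart.

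Single genes of the classes showed these differences in size. Tardbp was lower, with 28.9 and 30.1 TPM in the libraries labelled JMJD1C-LKO and a log2 fold change of −0.42 ± 0.0757 (SE), adjusted p = 0.00383 (edgeR). Eif4a1 was lower, with 267 and 240 TPM compared with 363 and 372 in WT, −0.51 ± 0.0921, adjusted p = 0.00389 (edgeR). Srsf5 was lower by a similar amount, −0.44 ± 0.0799, adjusted p = 0.00389 (edgeR). Gm2a was higher, with 65.5 and 68.2 TPM, 0.42 ± 0.0756, adjusted p = 0.00387 (edgeR), and Pdk4 was higher, with 2.48 and 6.30 TPM, 3.03 ± 0.385, adjusted p = 0.000689 (edgeR). The libraries of each group did not overlap for any of these 5 genes. All of them had passed the edgeR test, and the share of all genes without overlap was not counted, so this adds no separate support.

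Lipogenic members differed in direction, whereas the gluconeogenic members that changed were all higher. Scd1 was higher, with 448 and 562 TPM in the libraries labelled JMJD1C-LKO, 1.997 ± 0.103, adjusted p = 1.01e-05 (edgeR), and Lpin1, which makes diacylglycerol, was higher, 1.58 ± 0.151, adjusted p = 0.000174 (edgeR). Acaca was lower, 8.95 and 8.85 TPM compared with 12.3 and 14.5, −0.57 ± 0.0906, adjusted p = 0.00211 (edgeR), as were Elovl6, −0.59 ± 0.104 (adjusted p = 0.00325, edgeR), and Mlxipl, −0.49 ± 0.0788 (adjusted p = 0.0021, edgeR). Fasn had 28.1 and 21.1 TPM compared with 27.0 and 34.6 in WT, −0.29 ± 0.152, adjusted p = 0.181 (edgeR). Over all genes tested, 14.6% were higher and 13.4% lower. Of 22 lipogenic genes 7 were higher and 5 lower. Of 14 gluconeogenic genes 13 were higher and 0 lower, among them Pck1, with 1942 and 2463 TPM and 1.33 ± 0.132, adjusted p = 0.00021 (edgeR), and Ppargc1a, with 6.52 and 8.88 TPM and 1.72 ± 0.128, adjusted p = 5.40e-05 (edgeR). Both marked (Pck1, Scd1) and unmarked (Ppargc1a, Acaca) genes were thus among those that changed.

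Several further lists with many marked members held more lower than higher genes, where all genes tested were lower at 13.4% and higher at 14.6%. Of 82 tested cytosolic ribosomal protein genes 53 were lower and 0 higher, of 36 tested tRNA synthetases 16 and 0, of 65 tested translation factors 18 and 3, of 38 tested proteasome subunits 16 and 3, of 43 tested genes of the chromatin families 11 and 1, of 345 tested Zfp genes 48 and 8, and of 23 nuclear receptors and liver factors 10 and 3. The lower share of Zfp genes was near that of all genes tested. Ribosomal protein genes have many pseudogenes that can share their reads. Cholesterol biosynthesis had 6 lower and 8 higher of 24, fatty acid oxidation 6 and 6 of 30, insulin and TOR signalling 4 and 4 of 24, MAPK genes 5 and 2 of 27, clock genes 5 and 2 of 18 tested and H3K9 methylation enzymes 1 and 1 of 17 tested. Of the remaining lists, 3 of 28 tested protocadherins were higher and 1 lower, and none of 8 tested Hox, 6 tested olfactory and vomeronasal receptor and 2 tested histone genes passed the test in either direction.

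The overlap in fasted WT livers was nearer to that of refed replicate 2 than to that of refed replicate 1. In them 1141 genes were open in both livers, of which 69.2% were marked by fasted H3K9me2 replicate 1 and 96.5% by replicate 2, compared with 29.3% and 42.7% of all genes. The genes open in refed livers were marked at 71.6% and 96.5% by the fasted replicates. Of the open and marked genes 56.0% were open in both fasted livers, compared with 60.4% of open-only, 1.69% of mark-only and 0.115% of genes with neither. Mark-only genes were marked at 79.8% and 99.0% by fasted replicates 1 and 2 and genes with neither at 1.34% and 10.01%. With 2 livers in a state, the smallest p of an exact two-sided permutation test is 0.333, so refed and fasted livers were not tested against each other.

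In refed JMJD1C-LKO liver, ATAC-seq gave shorter lists, with 1450 and 825 summits, and fewer open genes, 1062 and 232 in replicates 1 and 2 (4.06% and 0.886% of all annotated genes), of which 83.7% and 71.6% carried the mark of WT refed replicate 2. Of the open and marked genes 49.0% and 8.50% were open in the JMJD1C-LKO livers, and of open-only genes 37.4% and 17.6%. Gm2a and Fdxr were open in both of these livers, Tardbp and Acadm in replicate 1. No H3K9me2 ChIP-seq of JMJD1C-LKO liver was analysed here.

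Base composition separated the classes as well. Over 23307 RefSeq promoter windows (250 bases upstream to 50 downstream, 19528 genes), the median number of CG dinucleotides was 24 in open and marked, 21 in open-only and 22 in mark-only promoters and 5 in those with neither, compared with 12 in all. GC content had medians of 63.0%, 61.3%, 62.0% and 51.7% in that order, and 56.0% in all. Each window was classed by the summits within 1000 bp of its own start. The 31 windows marked by replicate 1 had a median of 13 CG dinucleotides and 52.0% GC. Of windows with 0 or 1 CG 3.19% were marked by replicate 2 and 0.158% were open in both livers. The shares went up with every step to 67.2% and 9.97% at 20 or more.

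**Figure D5:**
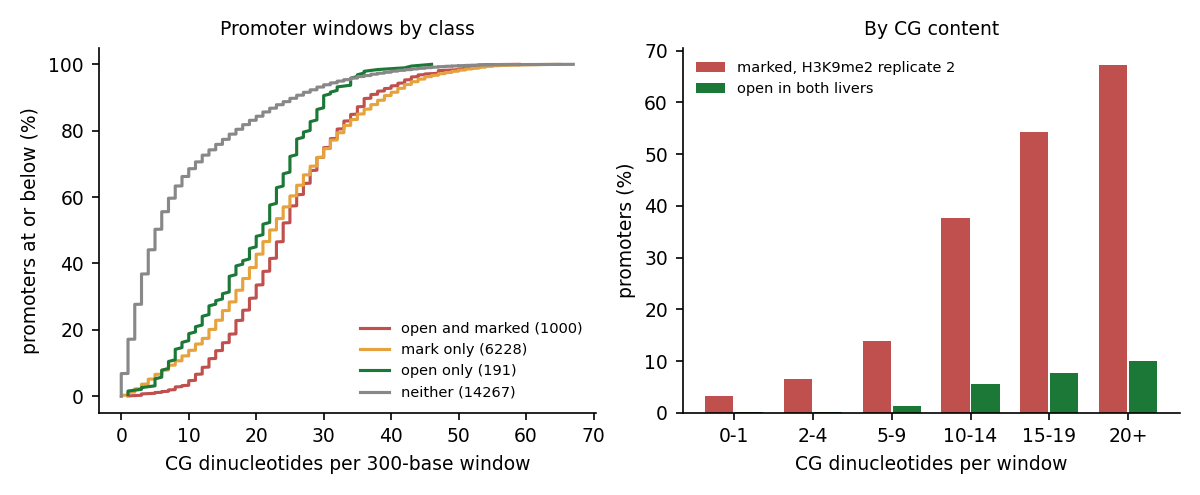
Left, the cumulative percentage of promoter windows (y axis) with at most a given number of CG dinucleotides per 300 bases (x axis), by class with the number of windows in brackets. Right, the percentage of windows in each range of CG number (x axis) that were marked by H3K9me2 replicate 2 (red) or open in both livers (green) within 1000 bp of their own start. Promoters with neither summit have a median of 5 CG, the other 3 classes medians of 21 to 24.

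Short motifs were counted in the same windows on both strands. CCAAT was found in 52.4% of open and marked and 63.9% of open-only promoters, compared with 34.0% of mark-only promoters, 37.8% of those with neither and 38.3% of all. In the sequences above Asf1b holds it 4 times, Hmgcs1 3 times, Eif4a1 and Alb 2 times each, Nr1d2 and Pdk4 1 time each and Gm2a, Pck1, Acly and Ppargc1a 0 times. The GC box GGGCGG was found in 76.5% of open and marked, 64.4% of open-only, 66.2% of mark-only and 30.6% of the remaining promoters, and in 45.2% of all. The E-box CACGTG, the sequence USF-1 binds, was found in 8.80%, 8.38%, 11.6% and 5.87% in that order and in 7.95% of all, and among the sequences above in that of Eif4a1 alone. The ETS core CCGGAAG was found in 18.3%, 12.04%, 23.97% and 4.16% (11.3% of all), and the TATA box TATAAA in 4.60%, 6.81%, 6.65% and 16.2% (12.3% of all). Rarer were the CRE TGACGTCA, with 3.20%, 2.62%, 3.73% and 1.26% (2.23% of all), the NRF1 core (given by name), with 1.3%, 2.09%, 2.84% and 0.400% (1.27% of all), and the YY1 core (likewise), with 2.10%, 0, 2.23% and 0.0911% (0.867% of all). A match is a run of letters and not a bound site.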

How the data were processed

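ATAC-seq reads were aligned by the authors with BWA and H3K9me2 reads with Bowtie2 to mm10, and summits were called per mouse with MACS2 2.1.1, each ChIP against its own input. The deposited summit scores are −log10 q-values. The deposited RNA-seq table holds estimated counts per RefSeq transcript, which were rounded and summed per gene (totals 51265128 to 54400509). A further deposited table of p-values and fold changes was not used. A gene was open or marked when a summit lay within 1000 bp of a RefSeq GRCm38.p6 transcript start. TPM was computed from the counts and RefSeq exon lengths for 24682 of 24994 transcripts. Of the JMJD1C-LKO and WT libraries, all 4 were compared with edgeR 4.0.16 in R 4.3.3 (filterByExpr, TMM, quasi-likelihood test, Benjamini-Hochberg adjusted p), which was tested on simulated counts. Summit files were read with Python 3.11.15 and pandas 2.3.3. The submitters' notes also name HISAT2, cutadapt 1.2.1, bcl2fastq 2.2, Partek and DESeq2 3.5.

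Wilson 95% intervals cover counting error only. RNA libraries came from pooled RNA, so p-values measure the spread between libraries, which may be technical. A summit was in repeats when over 50% of the bases within 100 bp were soft-masked. The members and gene lists were chosen with earlier results of these data known. Named genes were those the study names, up to 10 protein-coding genes per class by mean within-file rank of their best summit, and up to 4 per class of each list. Since the classes marked in both H3K9me2 replicates held 1 and 5 such genes, leaders of the classes by replicate 2 were added after the data were seen, as were the other genes of the 11 marked in both. Alternatives were window width, score, list length, repeats, transcripts, TPM against CPM, DESeq2 1.42.0, RLE factors, no filter, a replicate block and leaving out each library.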

Additional observations from a re-analysis of the deposited data

How the results depend on the processing

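The share of genes with the mark depended on the window, the list length and the replicate. With H3K9me2 replicate 1, genes with both numbered 4 at 500 bp, 12 at 2000 bp, 4 from 1000 bp upstream to 100 bp downstream, 3 at a score of at least 5, 1 with lists of equal length, 15 when either liver sufficed and 20 with the mark anywhere in the gene. Those with open chromatin only numbered 571 with equal lists and 2968 with either liver. Genes marked and not open in both livers numbered 54 in the main setting. They numbered 30 in the short window, 18 by score, 320 anywhere in the gene and 25 with protein-coding transcripts. With replicate 2, genes with both numbered 421 in the short window, 69 with equal lists and 2456 with either liver. Those with open chromatin only numbered 318 at 500 bp, and 678, 503 and 527 in the same settings in turn. Genes marked and not open in both livers, 8124 in the main setting, numbered 2603 in the short window and 1440 with equal lists. Leaving out 1 ATAC-seq liver gave 7 to 15 genes with both and 1626 to 2587 open only for replicate 1, and 1384 to 2142 with both and 249 to 460 open only for replicate 2. Each of these moved counts followed from fewer or more summits or transcripts counting.

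Over all pairs of summits the distance between ATAC-seq liver 2 and H3K9me2 replicate 1 was 416 bp. CPM in place of TPM gave medians of 21.3, 3.23, 24.4 and 0.882 for open and marked, open only, mark only and neither, in the same order of classes, and leaving out genes with no counts gave 0.597 for neither. Without 1 RNA-seq library the genes higher in the libraries labelled JMJD1C-LKO numbered 660 to 2590 and those lower 408 to 2590, both lowest without a WT library, when the lone WT library was assumed to vary like the others. Without library 2 labelled JMJD1C-LKO the open-only genes gave 10 higher and 7 lower, with DESeq2 17 higher, and without library 1 so labelled 251 open and marked genes were lower. Acot1 turned from 0.13 to −0.32 without library 2 labelled JMJD1C-LKO and −0.03 without WT library 1, and passed the threshold at 0.47 without library 1 labelled JMJD1C-LKO, as Fasn did at −0.56. Acly, at 0.00, turned to −0.00 with no filter or DESeq2, and between −0.21 (without library 1 labelled JMJD1C-LKO) and 0.18 (without library 2 so labelled) with 1 library left out, with −0.10 without WT library 1. For these single genes the cause was not tested.

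The replicate block gave 2211 genes higher and 1996 lower, and Acly at −0.01. The correlation of the deviations of same-numbered libraries from their group means was −0.00461. With 2 libraries in a group, this single value cannot show whether same-numbered libraries were paired.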

Other observations

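Away from gene starts, H3K9me2 replicate 1 met the open chromatin at sites that replicate 2 did not mark. Of its 1297 summits 148 (11.4%) lay within 200 bp of a summit in both refed ATAC-seq livers, of which 4 were within 1000 bp of a transcript start. No comparison share was counted for the 11.4%. Of the 148, 91 (61.5%) had mostly repeat-masked sequence around them, compared with 73.0% of all summits of replicate 1. A run of 25 bases was shared with the mitochondrial genome by 15 of the 148, compared with 18 of all 1297. Chromosomes 4, 8 and 6 held 152, 151 and 119 of the summits of replicate 1. A score of at least 5 was reached by 371 of them.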
